A study of Saccharomyces cerevisiae with 5 samples.

Results

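The stretch described here is chromosome IV of budding yeast, Saccharomyces cerevisiae, to the left of its centromere. It was taken as every position under 450000 on that chromosome, a rule that uses no measured value. The files do not mark the centromere, so its place was not checked. It holds 90 of the 2386 windows of 5 kb that all samples cover, and 16 of the 407 initiation sites found in the genome. Positions are those of the deposited files, whose genome build is not given in the sources used here, so sites are named by position and no gene or origin name was attached to them.

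The samples are 5 asynchronous cultures in which Okazaki fragments, the unjoined lagging-strand pieces behind a fork, were sequenced and turned into a fitted model of replication. Strain yIW160-SSDDCS gave 2 galactose samples, E and G, in which Sld2, Sld3, Dbf4, Dpb11, Cdc45 and Sld7 are overexpressed, and 1 glucose sample, F, in which their expression is normal. Strain yIW160, labelled wild type, gave 2 samples, A and B, whose sugar is not among their labels. The growth note of all 5 samples gives 30 degrees, 4 hours in 2% glucose or galactose and then 2.5 hours of doxycycline at 40 µg per ml. Galactose medium and the raised factors cannot be told apart, and nothing in the labels says that replicates are separate cultures, so p-values measure the spread between these samples only, which may be technical.

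Replication of a yeast chromosome starts at many origins, each used in a fraction of cells, and the forks from neighbouring origins meet and terminate between them. Dbf4 activates the kinase Cdc7, which prepares the helicase loaded at origins. Sld3 with Sld7 then recruits Cdc45 to it, and Sld2 and Dpb11 help to add the GINS complex. Doxycycline lowers DNA ligase in this strain background, so fragments stay unjoined and their strand shows the direction of the fork.

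Each fit is a set of lines, forks moving right or left, with a position, a time in minutes and a probability per chromosome copy. All lines have a slope of 2900 bases per minute, so speed was fixed in the fitting rather than measured. Lines covering the arm number 209 for E, 99 for G, 144 for F, 236 for A and 211 for B, the letters by which the samples are named from here on. No counts of fragments were used here, so the depth behind each value is unknown.

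Summed initiation on the arm was higher in both galactose samples than in any other sample (the permutation test here cannot give a p under 0.1). The initiation probabilities summed over the arm were 9.01 in E and 10.6 in G with galactose, 7.02 in F with glucose, and 6.44 in A and 7.80 in B, the wild type. The galactose values did not overlap with the rest, at 9.78 ± 1.09 (SD, n = 2) against 7.12 ± 0.964 in wild type (SD, n = 2), a ratio of 1.38, and at 1.39 times glucose (n = 1). The exact permutation test of galactose against the other 3 gave p = 0.1, two-sided, which is the smallest p this design allows, and p = 0.15 after adjustment over 12 measures of the arm. The number of sites overlapped between the groups, with 12 in E, 13 in G, 11 in F, 11 in A and 13 in B (exact permutation p = 0.6). The mean probability of a site did not overlap, at 0.751 in E, 0.812 in G, 0.638 in F, 0.585 in A and 0.60 in B (exact permutation p = 0.1). The distance per initiation was 49.9 kb in E, 42.6 kb in G, 64.1 kb in F, 69.9 kb in A and 57.7 kb in B.

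Of the 16 sites, 9 were listed in all 5 samples. They lie at 46.4, 85.3, 123.6, 158.5, 212.2, 254.3, 329.9, 407.2 and 435.2 kb. The remaining 7 were listed in 1 to 3 samples, and a sample without a site of probability 0.1 or more was set to 0 there.

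**Figure D1:**
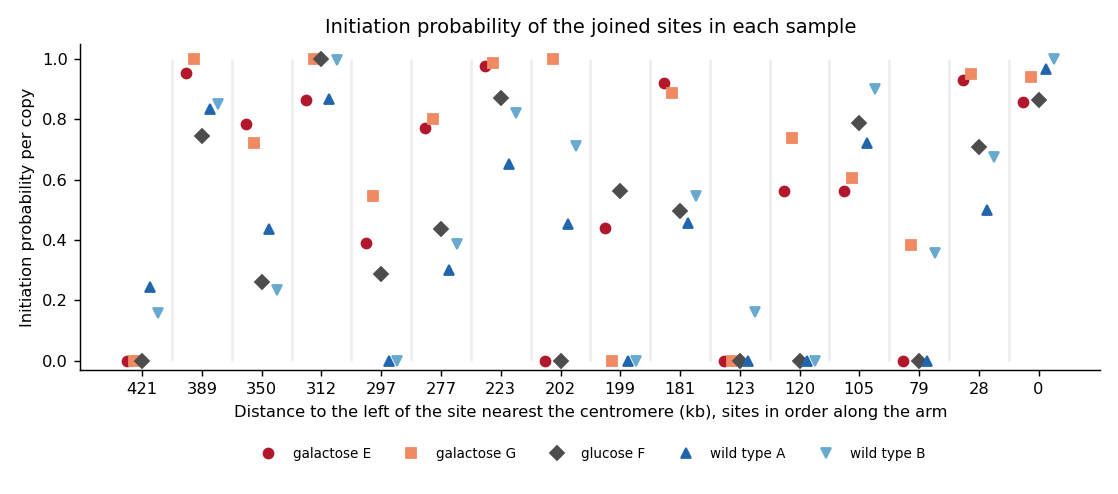
Initiation probability per chromosome copy (y axis, a fraction from 0 to 1) of the 16 joined sites in each sample, with sites in order from the chromosome end at the left and labelled by their distance in kb to the left of the site nearest the centromere. Each symbol is 1 sample, and both galactose symbols stand above the other 3 at 8 of the 16 sites and below them at 1.

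Galactose was above all 3 other samples at 8 of the 16 sites (50%) and below all 3 at 1 (6.25%). Among all 407 sites the shares were 51.6% and 2.7%. With limma over all 407 sites, 4 sites of the arm had a higher probability in galactose than in glucose at an adjusted p under 0.05, where 24.6% of all sites did, and 0 had a lower one, where 4.91% did. Against wild type 5 sites were higher, where 35.9% of all sites were, and 1 was lower, where 4.42% were. Both counts of higher sites are near or under the share in the genome. Glucose against wild type gave 0 higher and 0 lower, where 1.97% and 0.983% of all sites were called, with 1 site in each direction at an unadjusted p under 0.05. The calls rest on few samples. Galactose minus glucose had 0 calls without wild type A and 0 without wild type B, and galactose minus wild type had 2 without galactose E and 3 without galactose G.

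Under the rule used here to join sites of different samples, the site at 315.7 kb was listed with galactose alone. Its probability was 0.562 in galactose E and 0.737 in galactose G, and it was listed in neither glucose nor wild type. The difference of 0.65 passed the limma test against glucose (adjusted p = 0.0300) and against wild type (adjusted p = 0.0173). A site listed in wild type B, at 312.1 kb with probability 0.160, lies 3.6 kb to the left. With sites joined within 5000 or 10000 bp, the difference from wild type was 0.57. It still passed (limma adjusted p = 0.0297 and 0.0276). Whether the fits place a shared site differently there or list separate sites was not tested.

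The site at 315.7 kb lies 14.3 kb from its right neighbour at 329.9 kb. There the order was turned: the probability was 0.562 in E, 0.606 in G, 0.789 in F, 0.721 in A and 0.90 in B. This was the single site at which both galactose samples lay below all others, and the difference did not pass the test (limma adjusted p = 0.263 against glucose and 0.124 against wild type).

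At 3 sites listed in all 5 samples galactose was higher than both other groups at a limma adjusted p under 0.05. At 254.3 kb the probability was 0.921 in E, 0.887 in G, 0.496 in F, 0.456 in A and 0.545 in B. The difference was 0.41 against glucose (limma adjusted p = 0.0258) and 0.40 against wild type (adjusted p = 0.0169). At 158.5 kb it was 0.771 in E, 0.801 in G, 0.437 in F, 0.301 in A and 0.387 in B. The differences there were 0.35 (limma adjusted p = 0.0300) and 0.44 (adjusted p = 0.0150). These are sites of intermediate use outside galactose, and the galactose samples differed from each other by less than from any other sample. Both calls at 254.3 kb were lost in 4 of 11 alternatives, the ones that leave out a sample. At 158.5 kb the call against glucose was lost in the same 4. The call against wild type there was lost in 2 of 11, those without galactose E or without galactose G.

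The third, at 46.4 kb, was already strong in every sample. It had 0.953 in E, 1 in G, 0.745 in F, 0.833 in A and 0.851 in B, with differences of 0.23 (limma adjusted p = 0.0300) and 0.13 (adjusted p = 0.0459). The call against wild type was lost in 9 of 11 alternatives, including each of the 4 that leave out a sample, and the call against glucose in 5 of 11.

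Of the sites that passed in a single comparison, the one at 138.5 kb had 0.390 and 0.545 in galactose and 0.286 in glucose and was not listed in wild type. It passed against wild type (limma adjusted p = 0.0240) and not against glucose (adjusted p = 0.245). It was therefore seen in all 3 samples of strain yIW160-SSDDCS, with or without induction.

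The outermost site, at 14.2 kb, went the other way. It had 0.245 and 0.160 in wild type and was listed in no sample of yIW160-SSDDCS. It is the 1 site of the arm that was lower in galactose than in wild type (difference -0.20, limma adjusted p = 0.0434). Glucose minus wild type was the same -0.20 with an adjusted p of 0.156.

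Other sites showed gaps that did not pass. At 85.3 kb the probability was 0.785 in E, 0.721 in G, 0.262 in F, 0.437 in A and 0.236 in B (limma adjusted p = 0.0677 and 0.0507). At 407.2 kb it was 0.931 in E, 0.950 in G, 0.710 in F, 0.501 in A and 0.676 in B (adjusted p = 0.202 and 0.0507). In both, galactose did not overlap with the others. At 212.2 kb it was 0.976 in E, 0.988 in G, 0.870 in F, 0.651 in A and 0.823 in B, with adjusted p = 0.525 and 0.0930.

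The strong sites at 123.6 and 435.2 kb did not pass in any comparison. At 123.6 kb the probability ran from 0.866 to 1 over the 5 samples, with galactose on both ends of that range. At 435.2 kb, the site nearest the centromere, it was 0.856 in E, 0.939 in G, 0.864 in F, 0.969 in A and 1 in B. Galactose overlapped with glucose there and lay under wild type.

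A pair of neighbouring positions split the galactose replicates. The site at 233.2 kb had 1 in galactose G, 0.453 and 0.710 in wild type and was not listed in galactose E or glucose. The site at 236.2 kb, 3.03 kb further right, had 0.439 in galactose E and 0.562 in glucose and was not listed in the other 3. Each sample therefore has a site at one of these positions and not at both. The fits may place a shared site differently or list separate sites, and which of these holds was not tested. The site at 355.7 kb also split replicates, with 0.382 in galactose G and 0.357 in wild type B alone. That at 312.1 kb, 3.6 kb left of the site at 315.7 kb, was listed in wild type B alone, at 0.160.

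Fork direction changed in short stretches between these sites. Direction is given as the rightward share, the percent of chromosome copies in which a window is copied by a rightward fork, and it does not depend on any zero of time. With limma over all 2386 windows, 11 of the 90 windows had a higher rightward share in galactose than in glucose (12.2%), where 5.83% of all windows did, and 1 had a lower one, where 5.95% did. Against wild type 12 windows were higher and 8 lower, where 9.35% and 9.09% of all windows were. Glucose against wild type gave 0 windows in either direction, and the genome gave 0% and 0%, with 4 higher and 10 lower on the arm at an unadjusted p under 0.05. Neighbouring windows share forks, so these are not independent counts. Without galactose E or without galactose G no window was called in either comparison with galactose. Without wild type A, and likewise without wild type B, galactose minus glucose had 4 higher and 1 lower.

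**Figure D2:**
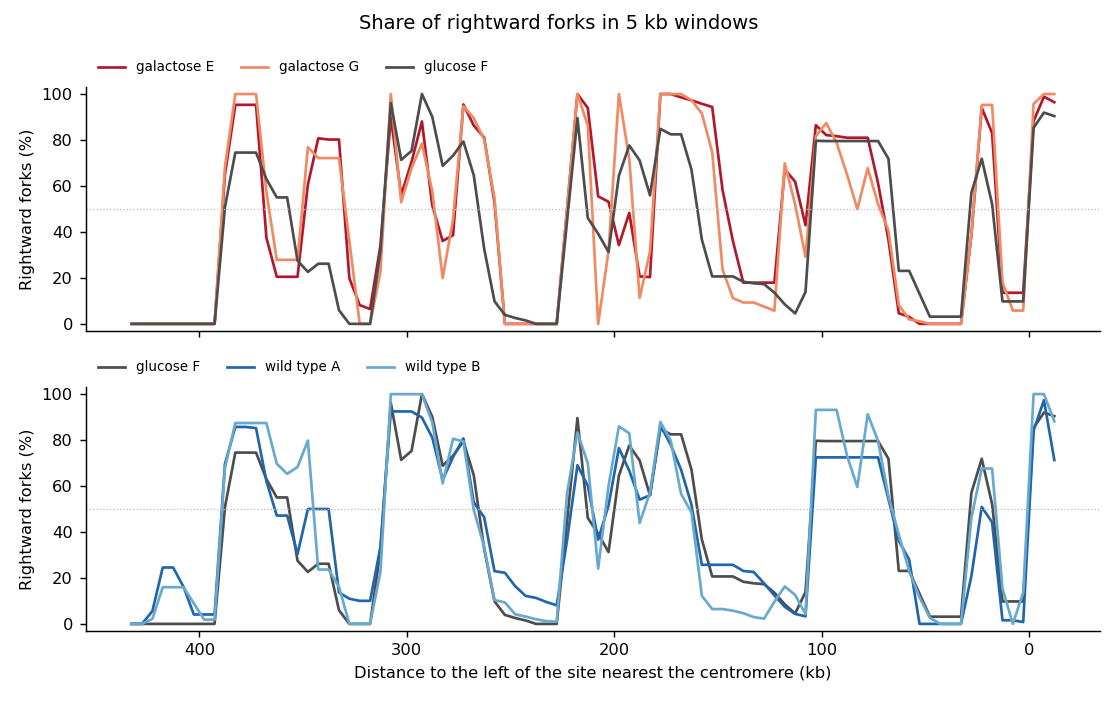
Rightward share in percent (y axis) of 5 kb windows against distance in kb to the left of the site nearest the centromere (x axis), with galactose E, galactose G and glucose F in the upper panel and glucose F, wild type A and wild type B in the lower one. The glucose line follows the wild-type lines more closely than the galactose lines, and the galactose lines part from it in short stretches.

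The largest called difference from glucose lay at 100001 to 105000, left of the site at 123.6 kb. Rightward forks made up 80.2% and 72.1% there in galactose E and G, 5.95% in glucose, and 13.6% and 16.1% in wild type. The stretch went from mostly leftward to mostly rightward copying, a difference of 70.2 percentage points against glucose (limma adjusted p = 0.0242) and 61.3 against wild type (adjusted p = 0.0183). It lies to the right of the site at 85.3 kb, whose probability was highest in the galactose samples without passing its own test.

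At 315001 to 325000, directly right of the site at 315.7 kb, the rightward share was 64.5% in E, 60.9% in G, 6.52% in F, 5.89% in A and 14.4% in B. The difference was 56.2 percentage points against glucose (limma adjusted p from 0.0295 to 0.0492) and 52.6 against wild type (adjusted p from 0.0198 to 0.0327).

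Right of the site at 254.3 kb, rightward copying reached further. At 255001 to 280000 the share was 98.3% in E, 97.8% in G, 70.7% in F, 61.8% in A and 57.0% in B, which is 38.7 percentage points above wild type over 5 windows (limma adjusted p from 0.0134 to 0.0363). Its last window, 275001 to 280000, held the largest called difference from wild type on the arm, at 74.7 percentage points (limma adjusted p = 0.0217). Against glucose 2 stretches of it passed, 255001 to 265000 at 16.3 percentage points and 270001 to 280000 at 43.6.

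The same held right of the site at 158.5 kb. At 160001 to 180000 the share was 79.0% in E, 79.8% in G, 46.7% in F, 50.7% in A and 43.2% in B, a difference of 32.4 percentage points from wild type. Against glucose the first 10 kb passed, at 19.5 percentage points. A smaller rise of 23.1 percentage points from glucose passed at 50001 to 60000, right of the site at 46.4 kb (both windows at limma adjusted p = 0.0492), and this call was lost in all 5 alternatives run.

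Other stretches had fewer rightward forks with galactose. Between 130001 and 140000 the share was 63.3% in E, 60.4% in G, 73.3% in F, 92.4% in A and 99.96% in B, 34.4 percentage points lower than wild type, a call that was also lost in all 5 alternatives run. Single windows at 145001 to 150000 and 155001 to 160000, left of the site at 158.5 kb, differed from wild type by -29.8 and -34.6 percentage points. At 365001 to 380000, left of the site at 407.2 kb, the share was 14.8% in E, 16.9% in G, 39.3% in F, 39.5% in A and 39.1% in B, 23.5 percentage points lower than wild type. Its first window also passed against glucose, at -33.2 percentage points. At 25001 to 30000 the share was 0% in all 3 samples of yIW160-SSDDCS and 16.2% and 16.0% in wild type, which lies beside the site listed at 14.2 kb in wild type alone.

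Over the 90 windows the mean absolute difference in rightward share was 7.63 percentage points between the galactose replicates and 10.3 between the wild-type replicates. It was 17.0 between galactose and glucose, 17.5 between galactose and wild type, and 8.67 between glucose and wild type. As a description over windows that share forks, the correlation of the rightward share was 0.94 between E and G, 0.939 between A and B, 0.933 and 0.923 between F and the wild-type samples, and 0.685 to 0.775 between a galactose sample and any other.

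Time needs its zero stated first. In the deposited tables the lowest averaged time is 0 on each of the 16 chromosomes of each sample, so minutes count from the earliest position of that chromosome in that sample and carry no common clock. On chromosome IV that position differed. It was 212304 in galactose E and 435362 in galactose G and glucose F, all on the arm described here, and 1017010 in both wild-type samples, which is 582 kb to the right of the site nearest the centromere. At 1017010 the fitted time was 9.79 and 7.53 min in galactose and 31.2 min in glucose. A difference in the level of time between wild type and the other groups on the arm therefore includes the whole of the fit between the arm and that distant position.

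**Figure D3:**
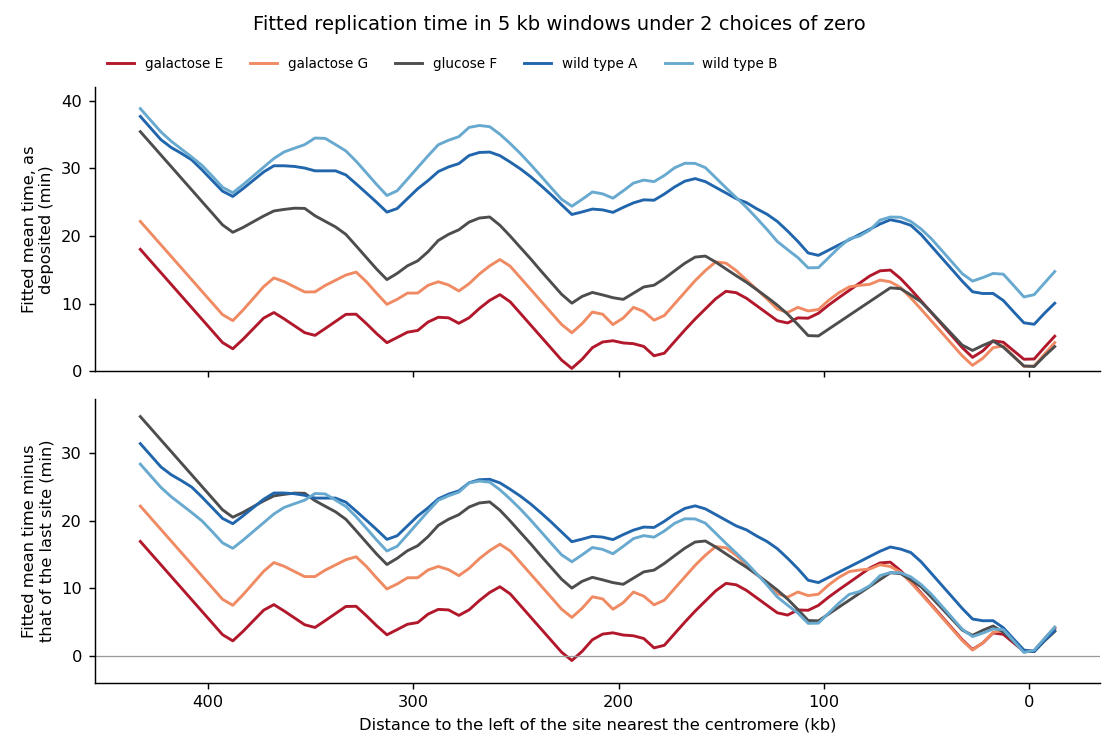
Fitted mean time in minutes (y axis) of 5 kb windows against distance in kb to the left of the site nearest the centromere (x axis), 1 line per sample. The upper panel has time as deposited, where wild type lies highest. The lower panel has time minus that of the site nearest the centromere, where the galactose lines lie under those of glucose and wild type to the left. There glucose F lies above wild type at the left end (36.2 min against 32.2 min in A and 29.1 min in B). It lies under wild type at 150000 (19.9 min against 23.7 min in A and 23.5 min in B).

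As deposited, the mean time over the arm was 7.39 min in E, 10.6 min in G, 14.9 min in F, 24.4 min in A and 26.1 min in B (exact permutation p = 0.2). Counted from the site nearest the centromere, it was 6.29 min in E, 10.6 min in G, 14.9 min in F, 18.1 min in A and 15.6 min in B. Glucose minus wild type was -1.93 min on this count, beside an SD of 1.75 min in wild type (n = 2). Galactose minus wild type was -8.37 min.

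With limma on time as deposited, 68 of the 90 windows (75.6%) had a lower time with galactose than wild type did, and 0 a higher one, where 7.8% and 0% of all windows were called. They form 3 regions, 1 to 280000 with a mean difference of -20.1 min, 290001 to 315000 with -12.4 min and 375001 to 410000 with -10.9 min, all with adjusted p from 0.0419 to 0.0492. Counted from the site nearest the centromere, 0 windows passed in either direction, with 56 at an unadjusted p under 0.05, and the 3 differences were -12.3, -4.57 and -3.06 min. Only chromosome IV was recounted in this way. The other chromosomes kept their deposited zeros, so the test and its adjustment over all windows mixed both kinds of zero. With each sample's median over all windows taken off, 0 passed. With the median over chromosome IV taken off, 57 were lower and 0 higher. With the mean of the windows within 50 kb taken off, 18 were higher and 23 lower. Leaving out any 1 of galactose E, galactose G, wild type A or wild type B also left 0. The calls of time against wild type are therefore not counted here as changes on the arm.

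Galactose minus glucose gave 0 higher and 0 lower on the arm for time as deposited, where 0% and 7.63% of all windows were called, with 25 windows lower at an unadjusted p under 0.05. With the median over chromosome IV taken off, 58 were higher and 0 lower, and with the local mean taken off 13 were higher and 14 lower. Glucose minus wild type gave 0 and 0, where 3.77% and 0% of all windows were called, with 70 lower at an unadjusted p under 0.05. That count was 0 when time was counted from the site nearest the centromere, while 90 were lower after taking off the median of chromosome IV.

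What does not depend on the zero is how far time falls along the arm. From the left end to the last position before the centromere the fitted time declined, by 12.9 min in E, 17.9 min in G, 31.97 min in F, 28.3 min in A and 24.4 min in B. Both galactose values lay under the other 3, at 15.4 ± 3.55 min against 26.3 ± 2.81 min in wild type (SD, n = 2 each; exact permutation p = 0.1, the smallest possible, and 0.15 after adjustment over 12 measures). The range of time over the windows was 17.6 min in E, 21.5 min in G, 34.8 min in F, 30.8 min in A and 27.9 min in B.

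Within the fit, the slope of mean time is set by fork direction. Where all forks move right, time rises at the fitted speed, where all move left it falls, and where the copies are evenly split it is flat. Rebuilding time from the rightward share along the arm came within 0.907 min of the deposited time in every sample, over ranges of 18.8 to 36.2 min. Time and direction are thus the same information apart from the zero, and a time difference at a given window is the difference at any other window plus the changes of direction between them.

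Galactose minus glucose shows this accumulation. The difference in time was -15.4 min at the left end, -9.28 min at 150000, -1.11 min at 300000 and 1.19 min at the last position. The arm's left end and its centromere side therefore differ by 16.5 min in this contrast, of which 6.08 min arose left of 150000, 8.17 min from there to 300000 and 2.30 min right of 300000. In galactose E the whole was 19.1 min and in galactose G 14.0 min.

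By intervals between adjacent sites, 9 of the 17 moved this difference up and 6 moved it down, by 30.7 and -14.5 min in sum. The interval from 85.3 to 123.6 kb added 8.72 min, that from 254.3 to 312.1 kb 7.27 min, that from 315.7 to 329.9 kb 4.69 min and that from 158.5 to 212.2 kb 4.42 min. The largest negative contributions were -4.99 min from 355.7 to 407.2 kb, -4.18 min from 138.5 to 158.5 kb and -3.74 min from 236.2 to 254.3 kb. In each of these 7 intervals galactose E and galactose G had the same sign.

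In the interval from 46.4 to 85.3 kb the net was 0.162 min, with E at -0.855 and G at 1.18 min. Of the 68 windows called in time against wild type, 16 were also called in rightward share, and in 29 the rightward share differed by less than 10 percentage points. Over all 90 windows of the arm these counts were 20 and 40, which are similar shares.

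**Figure D4:**
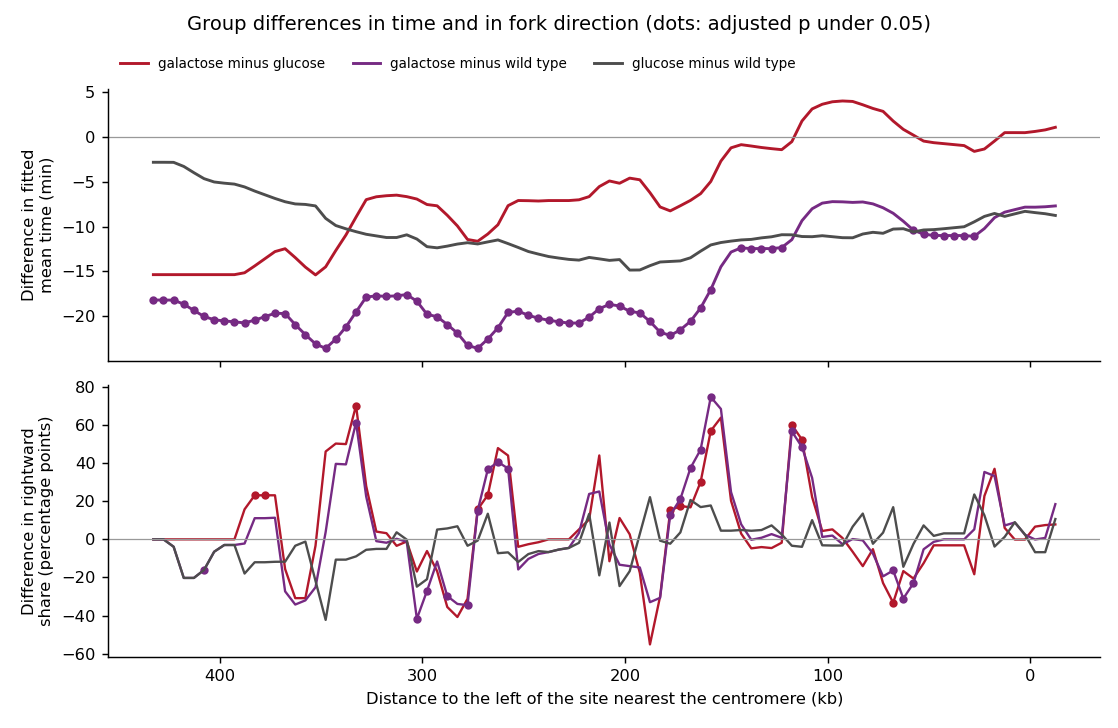
Group differences in fitted mean time in minutes as deposited (upper panel) and in rightward share in percentage points (lower panel) for 5 kb windows, against distance in kb to the left of the site nearest the centromere, with dots where limma gave an adjusted p under 0.05. The time difference of galactose minus glucose runs from -15.4 min at the left end to 1.19 min at the right, and the dots on the time line of galactose minus wild type (68 windows) depend on the zero, while those on the lines of direction do not.

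Galactose minus wild type accumulated in another order. Left of 150000 its time difference changed by -3.17 min, from there to 300000 by 8.89 min and right of 300000 by 5.20 min, which sums to 10.9 min. By intervals between adjacent sites, 8 moved this difference up and 9 moved it down, by 29.3 and -18.7 min in sum. The largest rise was in the interval from 254.3 to 312.1 kb, at 10.3 min. Glucose minus wild type changed by -9.24 min left of 150000 and by 0.718 and 2.90 min over the other stretches, beside SDs in wild type of 2.00, 3.55 and 4.35 min.

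The start times of sites, counted from the start of the site nearest the centromere, are likewise free of the deposited zero. The site at 158.5 kb started after it by 5.33 min in E, 10.5 min in G, 19.7 min in F, 19.9 min in A and 20.3 min in B. The site at 85.3 kb started after it by 2.47 min in E, 8.21 min in G, 17.0 min in F, 17.3 min in A and 15.6 min in B. At 407.2 kb the values were 1.58 min in E, 0.679 min in G, 1.45 min in F, 1.61 min in A and -0.474 min in B. The galactose samples lay under the other 3 at 158.5 and 85.3 kb and overlapped with them at 407.2 kb. They also overlapped at 329.9 kb, with 2.44 min in E, 5.74 min in G, 0.00828 min in F, 2.48 min in A and 2.99 min in B. At 254.3 kb the values were 1.31 min in E, 6.89 min in G, 10.2 min in F, 14.7 min in A and 14.2 min in B, so that E and G differed there by more than G and F.

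Forks from neighbouring sites meet where the rightward share falls through 50%. For neighbours that each had a probability of 0.3 or more, such places numbered 9 in E, 12 in G and 7 in each of F, A and B. These counts depend on the cut at 50%, and no other cut was tried. In wild type A the share was 49.99% at 85001 to 100000 and 13.6% at 100001 to 105000, and no place was counted there. The mean difference of 3.5 places was 2 without galactose G and 5 without galactose E. The SD of termination positions between such sites averaged 4.03 kb in E, 2.84 kb in G, 8.08 kb in F, 7.65 kb in A and 5.76 kb in B, with no overlap between galactose and the rest (exact permutation p = 0.1). Those averages run over different intervals in each sample. Over the same 8 intervals between sites listed in all 5 samples, an alternative added after seeing the data, the mean SD was 7.66 kb in E, 7.56 kb in G, 8.16 kb in F, 9.14 kb in A and 7.44 kb in B, and the groups overlapped.

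Between the joined positions of the sites at 46.4 and 85.3 kb each galactose sample had a single termination event. It was at 66.2 kb with probability 0.748 in E and at 67.1 kb with probability 0.721 in G. These lie at 50.9% and 53.2% of the interval. In glucose and wild type A the largest event lay at 82.7 kb, close to the right-hand site, with probabilities of 0.550 and 0.408. Wild type B had 0.222 in all in this interval and its largest nearby event beyond the site, at 89.4 kb, with probability 0.649. By the fall of the rightward share through 50%, however, wild type A lay at 66.97 kb, beside the galactose samples, and glucose and wild type B at 82.7 and 89.4 kb, where the site at 85.3 kb was under 0.3 and the next neighbour is that at 123.6 kb.

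Between 158.5 and 212.2 kb the galactose samples also lay close together, with their largest events at 178.6 and 178.7 kb and probabilities of 0.762 and 0.796. In glucose the largest was at 172.2 kb with 0.381, and in wild type at 163.6 kb with 0.396 and 162.9 kb with 0.503. The mean termination position was 176.2 kb in both galactose samples, to the right of 168.2 kb in F, 173.9 kb in A and 169.5 kb in B. The share of termination held by the largest event was 78.6% in E, 80.1% in G, 34.3% in F, 44.9% in A and 50.7% in B.

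Right of the site at 254.3 kb, the mean termination position before the site at 329.9 kb was 297.6 kb in E, 298.0 kb in G, 278.7 kb in F, 281.1 kb in A and 278.4 kb in B. The galactose values here include the events between 315.7 and 329.9 kb, where wild type B also had an event, with probability 0.152. By the fall of the rightward share through 50%, the first place right of the site at 254.3 kb was 286.7 kb in E, 284.1 kb in G, 277.2 kb in F, 274.1 kb in A and 266.7 kb in B. The next site to the right was that at 315.7 kb in galactose and that at 329.9 kb in the others, so the intervals differ. Galactose had a further such place between 315.7 and 329.9 kb, at 323.0 kb in E and 322.2 kb in G.

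The interval nearest the centromere did not separate the groups. Between 407.2 and 435.2 kb the mean termination position was 419.4 kb in E, 420.5 kb in G, 418.5 kb in F, 419.9 kb in A and 421.2 kb in B. At the edge of the stretch, the first site beyond 450000, at 463.2 kb, had 0.247 in galactose E, was not listed in galactose G, and had 0.699 in glucose and 0.841 and 0.871 in wild type. Wild type A and B had termination events at 448.5 and 449.4 kb, with probabilities of 0.814 and 0.871.

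Summed probability in galactose was 1.39 times glucose and 1.38 times wild type on the arm, and 1.44 and 1.49 times over the rest of the genome, and on chromosome IV right of 450000 it was 1.3 and 1.46 times. Initiations per kb on the arm relative to the rest of the genome were 0.957 in E, 1.03 in G, 1.02 in F, 1.03 in A and 1.13 in B, and the exact permutation test of that ratio gave p = 0.6, in a design where 0.1 is the smallest p. The balance of time between both sides of 450000 had opposite signs in wild type and the other samples. The mean time of the arm minus that of chromosome IV right of 450000, which does not depend on the zero, was -9.46 min in E, -6.12 min in G, -20.3 min in F, 11.5 min in A and 9.13 min in B. Wild type thus had its left side later and the 3 samples of yIW160-SSDDCS their right side later, and whether strain, medium or another difference between these samples goes with that was not tested.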

How the data were processed

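The authors fitted fork paths to the Okazaki fragments of each sample and deposited line segments, their interpolated samples and an averaged profile, per the labels' column lists. Probabilities are a fraction from 0 to 1 and times are in minutes, as the authors deposited them. The aligner, fitting program and build were not given in the sources used here. Fragment counts were not analysed here, so depth is unknown.

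Initiation sites are segment ends from which forks leave in both directions, with a net probability of 0.1 or more, and sites closer than 2500 bp in different samples count as a joined site. Windows of 5 kb needed 50% of their positions in all samples. Sites and windows were compared over the whole genome with limma 3.58.1 in R 4.3.3 (a mean for each of 3 groups over 5 samples, leaving 2 residual degrees of freedom; two-sided; Benjamini-Hochberg threshold 0.05), which assumes that the lone glucose sample varies like the other groups. The limma step was tested on simulated data with independent rows. That does not cover windows that share forks, or a zero of time that differs between samples. Single values of samples were compared by two-sided exact permutation of 2 galactose samples against 3 others, where 0.1 is the smallest p, and galactose against glucose alone cannot go below 0.333. Other steps used Python 3.11.15 with numpy 2.4.6, pandas 2.3.3 and matplotlib 3.10.9.

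Every joined site and every run of adjacent windows past the threshold is named. The plan took time 0 to be the earliest position of each sample. The tables have a 0 on every chromosome, so a count from the site nearest the centromere was added after seeing the data. The members and lists were chosen with earlier results of these data known. Alternatives covered joining distance, minimum probability, scale, window size, centring of time, ends of the arm and leaving out samples.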

Additional observations from a re-analysis of the deposited data

How the results depend on the processing

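Calls of limma depend on single samples. Leaving out 1 galactose or wild-type sample at a time gave 0 to 4 called sites for galactose minus glucose (4 with all samples), 2 to 5 for galactose minus wild type (6) and 1 to 2 for glucose minus wild type (0, and 1 when sites were joined within 1000 bp). The length of windows called in rightward share went to 0 to 25 kb for galactose minus glucose (60 kb, and 100 kb with windows of 10 kb) and to 0 to 115 kb for galactose minus wild type (100 kb). For time, galactose minus glucose went from 0 to 290 kb with the chromosome's median taken off and 135 kb with the local mean taken off. Galactose minus wild type went from 340 kb to 0 with the median of all windows taken off, 205 kb with the local mean and 0 counted from the site nearest the centromere, and it was 0 to 0 kb over the samples left out. Glucose minus wild type went from 0 to 450 kb with the chromosome's median taken off. The time difference of galactose minus wild type at 290001 to 315000 turned to 0.726 min with the local mean taken off. A centring resets the zero by construction. Otherwise the cause was not tested. Counted as pairs of a result and an alternative, the 12 measures of the arm kept their direction in all 109 pairs. The called sites kept their direction in all of their pairs, passing in 71 and not in 39. The called regions of fork direction kept theirs as well, passing in 28 and not in 52. In part of these alternatives the direction could not change. The minimum probability does not enter the measures of time and rightward share. Leaving out a wild-type sample cannot alter the difference of galactose from glucose. These counts of kept directions therefore overstate how much was tried. No paired analysis was possible because the replicate letters are shared by no pair of groups. Depth is unknown, so its limits cannot be given.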
